A study of Saccharomyces cerevisiae with 54 samples.

Results

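The transcriptomes of YPS1009 and YPS163, 2 isolates of the budding yeast Saccharomyces cerevisiae that came from oak exudate, were compared with each other. The comparison used 7 of the 54 arrays of a panel of 17 strains, namely the 3 arrays of YPS1009 and the 4 arrays of YPS163, chosen by their titles. Each array set RNA of 1 strain against RNA of the laboratory strain DBY8268, a diploid of S288c background (ura3-52/ura3 deletion, ho/ho, GAL2/GAL2), on spotted oligonucleotides that represent the open reading frames of the reference genome. The difference of the log2 ratios, YPS1009 minus YPS163, therefore no longer depends on DBY8268, and a value of 1 stands for a 2-fold higher ratio in YPS1009. Both strains grew untreated in YPD, a rich medium with glucose, to early log phase. Each strain is 1 isolate, its arrays are biological replicates according to the methods, YPS163 was listed as diploid and the ploidy of YPS1009 was not given in the sources used here. The study's genomic hybridizations found chromosome XII duplicated in YPS1009, so genes on that chromosome, whose systematic names begin with YL, were counted apart from all others.

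The ends of yeast chromosomes carry repeated DNA between the telomere and the first unique genes. Its outer part in many strains is the Y' element, a long repeat that holds an open reading frame for a helicase, named YRF1 in several copies, and the number of Y' elements is known to vary widely between strains. Near-identical copies of such repeats and of transposable Ty elements can share oligonucleotides, so their values cannot be taken as independent of each other. An aneuploid chromosome is present in an unusual number of copies, and in yeast the transcripts of such a chromosome commonly shift together.

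Between 5214 and 5467 genes had a value on the YPS1009 arrays and between 3544 and 5358 on the YPS163 arrays. Replicate 1 of YPS163 stood apart. It had the fewest values of the 7 arrays, it was the only one from the slide series numbered 4 in the labels, and its mean correlation with the 3 remaining YPS163 arrays was 0.47, against 0.64 to 0.73 for the other 6 arrays. Replicate 3 of YPS1009 and replicate 4 of YPS163, in slide series 6, were the dye-reversed arrays, and the other 4 were in series 5. The yeast mating-type genes, used as a check for haploid cells, mostly lacked values in both strains: 3 of 10 haploid-specific, 3 of 7 a-specific and 2 of 4 alpha-specific genes could be tested, and limma called none of these 8 (1 passed an unadjusted p of 0.05, MF(ALPHA)2, with 1 value in each strain).

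Few transcripts passed the test, and most that did were lower in YPS1009 and lay at chromosome ends. Of 5614 genes tested, limma called 33 at an adjusted p of 0.01 (0.588% of genes), with 31 lower in YPS1009 (0.552%) and 2 higher (0.0356%). Off chromosome XII, 28 of 5127 genes were called, 27 lower and 1 higher. On chromosome XII, 5 of 487 were called, 4 lower and 1 higher. The arrays of the strains did not overlap for any of the 33, and over all genes tested the YPS1009 arrays lay below all YPS163 arrays for 10.1% and above them for 7.84%. At an unadjusted p of 0.05, limma passed 247 lower and 103 higher genes off chromosome XII (4.82% and 2.01% of the genes there). Over all genes tested, chromosome XII included, 4.56% were lower and 4.03% higher at that level. A fit on the 7 arrays alone, without the other 15 strains in the estimate of the spread, called 14 genes, all of them among the 33.

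All 8 YRF1 genes, the helicase genes of the Y' elements, fell in YPS1009. Their median difference was -2.90, a 7.47-fold lower ratio, against -0.04 over all genes tested. YRF1-6 had log2 ratios of -3.53, -3.62 and -3.31 on the YPS1009 arrays, against -0.81, -0.80, -0.55 and 0.06 on the YPS163 arrays. Every YPS1009 array lay more than 2 log2 units below every YPS163 array, and the difference was -2.96 ± 0.27 (SE; limma's adjusted p = 1.6e-10). YRF1-5, on chromosome XII, showed the largest fall of the family. Its ratios were -4.52 and -5.43 in YPS1009, where replicate 3 had no value, and -1.76, -2.20 and -1.07 in YPS163, where replicate 1 had none, a difference of -3.30 ± 0.41 (SE; limma's adjusted p = 1.5e-06). YRF1-3 showed the smallest fall. It stood at -3.38, -3.60 and -1.68 in YPS1009 against -0.91, -0.81, -0.32 and -0.09 in YPS163, so that replicate 3 of YPS1009 was much closer to YPS163 than the other 2, and the difference was -2.35 ± 0.33 (SE; limma's adjusted p = 3.0e-06). Over the 8 genes the array medians were -3.53, -3.68 and -3.34 in YPS1009 and -0.97, -0.86, -0.79 and -0.18 in YPS163. All 8 were still called without replicate 1 of YPS163, and also within slide series 5 alone, which held 2 arrays of each strain.

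A further 14 open reading frames within 5 genes of a chromosome end fell to a like extent, and many of them are known as Y' helicase-like frames. Their differences ran from -4.34 to -2.69 with a median of -2.90. YPR204W, the outermost gene of the right end of chromosome XVI, had the smallest p of all genes. Its ratios were -3.74, -4.02 and -3.79 in YPS1009 against -0.90, -1.07, -0.89 and -0.32 in YPS163, and the difference was -3.06 ± 0.25 (SE; limma's adjusted p = 2.0e-11). The arrays of each strain lay close together. YFL066C, the frame with the largest of these differences, was less uniform among the YPS1009 arrays, at -3.50, -6.66 and -5.44, against -1.14, -0.55, -0.82 and -0.93 in YPS163 (-4.34 ± 0.53, SE; limma's adjusted p = 3.6e-07). The neighbours YBL111C, YBL112C and YBL113C at the left end of chromosome II had differences of -3.66, -3.08 and -3.03. YPR203W was less firm, with only 2 values in each strain. They were -3.74 and -6.69 in YPS1009 and -1.96 and -1.34 in YPS163. Its difference ran from -5.04 to -2.09 with 1 array left out, and its call was lost without replicate 2 of YPS1009. The medians of the 14 frames were -3.50, -3.99 and -3.69 on the YPS1009 arrays and -1.12, -0.91, -0.86 and -0.33 on those of YPS163, nearly the levels of the YRF1 genes. The 22 frames of both groups cannot be read as 22 separate observations, since near-identical copies can share signal. How far they do was not examined here. The number of Y' copies was not analysed here, and its part in the difference was not tested, nor was that of sequence differences under the oligonucleotides.

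**Figure D1:**
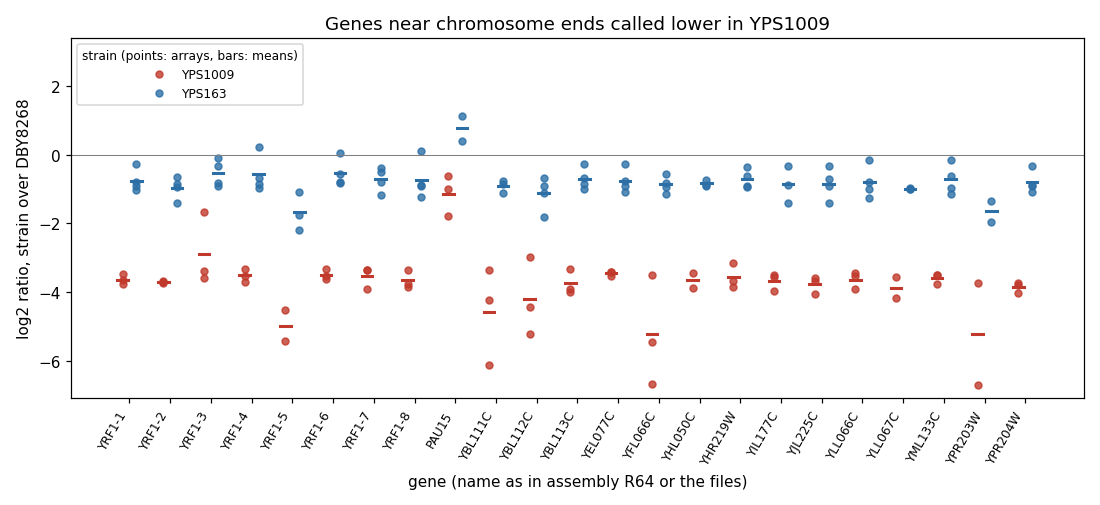
Log2 ratio over DBY8268 of the 23 genes within 5 genes of a chromosome end that were called lower in YPS1009, with a point for each array and a bar for each strain's mean. The 3 YPS1009 arrays of the YRF1 genes and the 14 other frames lie between -6.69 and -1.68, below all YPS163 arrays of the same gene. PAU15 is the single gene whose YPS163 values are all above 0, with a value on 2 arrays.

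The calls were concentrated at the outermost positions. Genes were ranked from the nearer end of their chromosome by their order in the R64 assembly. At ranks 1 and 2, 20 of 51 genes tested were called lower, with a median difference of -0.96. At ranks 3 to 5 it was 3 of 74 (median -0.09), at ranks 6 to 10 it was 1 of 132 (YEL068C, median of the bin -0.06), and at ranks 11 to 20 it was none of 287 (median 0.05). Beyond rank 20, 2 of 4835 were lower and 2 higher. The calls within 5 genes of an end lay at 18 of the 32 chromosome ends. They were the 8 YRF1 genes, the 14 other frames and PAU15. Except for PAU15, these can share signal. The ranks therefore show where the assembly places such frames, and are not separate observations of each end. The 31 genes of ranks 1 and 2 that were not called had a median difference of -0.12, and their lowest value was that of AAD3, a putative aryl-alcohol dehydrogenase (-3.77 ± 0.83, SE; limma's adjusted p = 0.017). Its relative AAD15, also at a chromosome end, stood at -3.59, -3.47 and -2.29 in YPS1009 and 0.52, 0.03 and 0.49 in YPS163, with limma's adjusted p at 0.012, just outside the threshold.

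**Figure D2:**
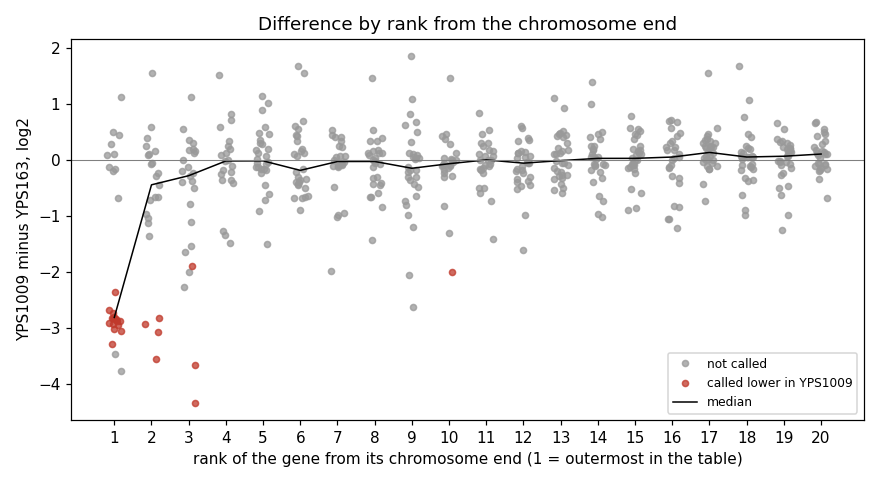
Difference in log2 ratio, YPS1009 minus YPS163, against the rank of the gene from its chromosome end, for ranks 1 to 20, with 1 point for each gene and a line through the median of each rank. Called genes gather at ranks 1 to 3, and the median is close to 0 from rank 4 on.

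PAU15, a member of the seripauperin family of stress-induced cell wall proteins at the right end of chromosome IX, was a different kind of end gene. Its ratios were -1.79, -1.01 and -0.61 in YPS1009 against 1.13 and 0.40 in YPS163, and it fell by 1.90 on the log2 scale (limma's adjusted p = 0.0033). Of the 26 seripauperin, TIR and DAN genes tested, it alone was called, and their median difference was -0.14. Without replicate 1 of YPS163 its call was lost (limma's adjusted p = 0.17). YEL068C, a frame of unknown function, fell by 2.00 on the log2 scale, with ratios of -2.34 and -3.76 in YPS1009 and -1.37, -0.99, -1.07 and -0.78 in YPS163, and its call was lost without replicate 2 of YPS1009 (limma's adjusted p = 0.36). The calls of YKL225W, YBL109W and YEL074W, which are not in the R64 table, each rested on a single value in a strain. Without replicate 1 of YPS163, YKL225W and YBL109W could not be tested.

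Away from the chromosome ends, the clearest difference was in 2 frames of 1 copy of Ty3. Ty3 is a retrotransposon that inserts next to genes transcribed by RNA polymerase III. YIL080W, a frame of the Ty3 copy on chromosome IX, stood at -0.64 and -0.49 in YPS1009 and at 1.98, 1.67 and 1.74 in YPS163 (-2.36 ± 0.33, SE; limma's adjusted p = 1.5e-04). YIL082W-A, of the same copy, stood at -0.49, -0.80 and -0.75 against 1.73, 1.78 and 1.82 (-2.46 ± 0.46, SE; limma's adjusted p = 0.0039). The replicates agreed closely within each strain, and YPS163 was the strain that stood apart here: its mean exceeded that of each other strain with a value, for YIL080W 12 strains reaching 0.07 at most and for YIL082W-A 11 strains reaching -0.08 at most. The YPS1009 mean was not low among them, lying above 7 of the 12 strains for YIL080W and above 6 of the 11 for YIL082W-A. The call of YIL082W-A was lost when any of several single arrays was left out (limma's adjusted p up to 0.027). Of 86 Ty frames tested, limma called these 2 alone, and 59 of the 86 differences were above 0, against 2581 of all 5614 genes. The median over the 86 was 0.24, falling below 0 without replicate 1 of YPS1009 (-0.01) and among genes with a value on all 7 arrays (-0.14).

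AI5_ALPHA, an intron-encoded frame of the mitochondrial cytochrome oxidase gene COX1, had ratios of -4.61, -4.97 and -5.83 in YPS1009 and -3.44, -0.82, -1.36 and -1.38 in YPS163. The arrays did not overlap, although replicate 1 of YPS163 lay nearer to YPS1009 than its fellows, and the difference was -3.39 ± 0.61 (SE; limma's adjusted p = 7.4e-04). Both strains were below DBY8268, as were most other strains (mean of the 15 others -4.12). Of the 26 mitochondrial frames tested it was the only one called, and their median difference was 0.23. The highest difference of that list was 2.69, for AI3, another intron-encoded frame of COX1. AI3 stood at -1.89, -5.83 and -2.30 in YPS1009 and at -6.03 on the 1 YPS163 array with a value. Without replicate 3 of YPS1009 limma's adjusted p for AI5_ALPHA was 0.014.

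TPO4, a plasma membrane transporter of polyamines, fell in YPS1009. Its ratios were -1.96, -3.88 and -2.77 in YPS1009 against -0.22, -0.63, 0.42 and 0.95 in YPS163, a difference of -3.00 ± 0.65 (SE; limma's adjusted p = 0.0079). YPS1009 lay below every other strain's mean, the lowest of which was -1.54. The only gene off chromosome XII called higher was IMP21, whose product is a transcriptional activator in ion homeostasis and DNA damage protection. It stood at 2.84, 2.82 and 1.57 in YPS1009 and at 0.11, -0.31 and -0.28 in YPS163, where replicate 1 had no value (2.57 ± 0.51, SE; limma's adjusted p = 0.0040). The YPS1009 mean was above those of all 15 other strains, which reached 0.56 at most. Each of these calls was lost when 1 of several single arrays was left out, with limma's adjusted p up to 0.14 for TPO4 and 0.045 for IMP21, while the differences stayed between -3.46 and -2.50 for TPO4 and between 2.36 and 2.99 for IMP21.

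Some genes off chromosome XII fell just outside the threshold, and they were picked out after their values were seen. RPN4, the transcription factor of proteasome genes, had ratios of -0.65, -0.56 and -0.71 in YPS1009 and 0.53, 0.01 and 0.89 in YPS163 (-1.12 ± 0.25, SE; limma's adjusted p = 0.012), with no overlap. The 34 genes of the proteasome list, which includes RPN4, had a median difference of 0.03, with the highest at 0.49 (RPN11), and limma called none of them (2 passed an unadjusted p of 0.05). TRK2, a potassium transporter, stood at -1.14, -0.98 and -0.41 in YPS1009 and at 0.36 and 0.05 in YPS163 (limma's adjusted p = 0.027). YGP1, a secreted glycoprotein induced by nutrient limitation, was at -2.71, -4.13 and -3.53 in YPS1009 against -1.57, -0.73 and -0.60 in YPS163 (limma's adjusted p = 0.027).

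Chromosome XII was raised as a whole in YPS1009. On each array the median log2 ratio of its genes was set against the median of all genes on other nuclear chromosomes. This offset was 0.52, 0.48 and 0.53 on the YPS1009 arrays and 0.05, 0, -0.04 and 0.02 on the YPS163 arrays. The difference was 0.50 ± 0.03 (SE; limma's adjusted p over 16 chromosomes = 2.3e-18), a 1.42-fold higher level with a 95% interval of 1.36 to 1.48. The arrays did not overlap, and the exact two-sided permutation test over 3 and 4 arrays gave p = 0.029, the smallest it allows. The differences of the other 15 chromosomes lay between -0.09 and 0.03, and the smallest of limma's adjusted p-values among them was 0.56. Within slide series 5 the difference was 0.52, and between the 1 array of each strain in series 6 it was 0.51. The other 15 strains had chromosome XII offsets of -0.06 to 0.06. Genomic DNA was not analysed here.

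**Figure D3:**
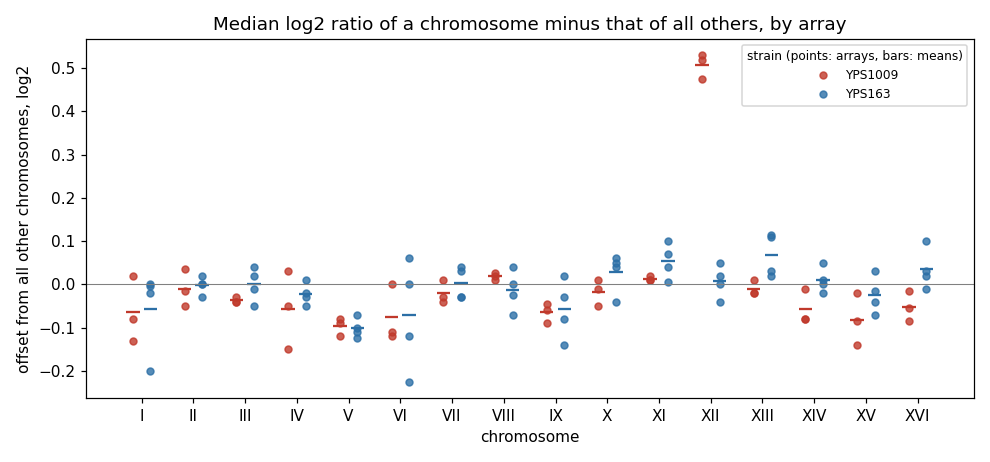
Offset of each of the 16 nuclear chromosomes, that is the median log2 ratio over its genes less that of all other chromosomes, with a point for each array and a bar for each strain's mean. Chromosome XII lies between 0.48 and 0.53 on the YPS1009 arrays and between -0.04 and 0.05 on the YPS163 arrays, while the strains overlap or lie close together elsewhere.

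The shift ran along the entire chromosome and through the distribution of its genes. Of the 487 genes tested on chromosome XII, 410 (84.2%) had a difference above 0, against 42.3% of the genes off it. The median difference was 0.44 on chromosome XII and -0.07 off it. The distributions were offset by a like amount at every point examined, by 0.44 at the 10th percentile, 0.51 at the median and 0.43 at the 90th percentile. The left arm had a median difference of 0.34 (59 genes), the right arm before the ribosomal DNA 0.47 (146 genes), and the right arm beyond it 0.44 (282 genes). The left arm was less even, with 72.9% of its genes above 0, against 88.4% and 84.4% in these 2 parts of the right arm. Set against genes off the chromosome, its array medians were 0.485, 0.19 and 0.415 in YPS1009. In YPS163 they were 0.04, -0.08, 0.11 and -0.015. In 12 consecutive sets of 30 or 40 genes along the chromosome, the medians lay between 0.34 and 0.54. The lowest was in the set that begins with the ASP3 genes.

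**Figure D4:**
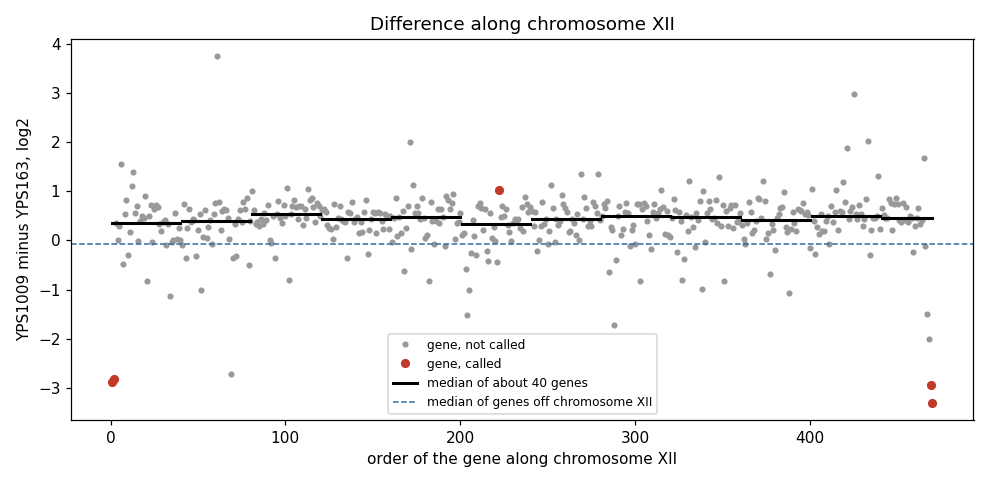
Difference in log2 ratio, YPS1009 minus YPS163, of 470 genes in their order along chromosome XII, with horizontal bars for the medians of consecutive sets of 30 or 40 genes and a dashed line for the median of genes off the chromosome (-0.07). The bars lie between 0.34 and 0.54 throughout, and the 4 genes called lower lie at the chromosome's ends.

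Few single genes of chromosome XII reached the threshold on their own. A 1.5-fold higher ratio was seen for 33.3% of them, against 4.21% off the chromosome, and the YPS1009 arrays lay above all YPS163 arrays for 36.1%, against 5.15% off it. At an unadjusted p of 0.05, limma passed 123 higher and 9 lower genes of the 487, and at an adjusted p of 0.05 it called 12 higher and 4 lower there. Over all 5614 genes that level gave 14 higher (0.249%) and 46 lower (0.819%). The median standard error of a single gene's difference on chromosome XII was 0.34, close to the size of the shift. The paper reported that most genes of this duplicated chromosome were not raised in transcript level. It judged genes singly against S288c, at a false discovery rate of 0.01 or above 1.5-fold, which is another measure than a shift of the chromosome's median. The paper proposes feedback control of gene dosage, which was not tested here. Centring each array on the genes off chromosome XII gave 6 genes higher and 4 lower at an adjusted p of 0.01, in place of 1 and 4. The 4 called lower were YLL066C and YLL067C at the left end and YRF1-4 and YRF1-5 at the right end. These frames, which can share signal with copies at other chromosome ends, ran against the rest of the chromosome. Of the genes tested next inward, PAU18 on the left differed by 0.36 and YLR464W on the right by -2.

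SAM1, which encodes an S-adenosylmethionine synthetase, was the only gene of chromosome XII called higher. Its ratios were 1.40, 2.01 and 1.37 in YPS1009 and 0.46, 0.73, 0.51 and 0.55 in YPS163, with no overlap, and the difference was 1.03 ± 0.22 (SE; limma's adjusted p = 0.0077). Without replicate 1 of YPS163 it was 1.00, with limma's adjusted p at 0.030, and over the arrays left out in turn that p reached 0.17. The higher genes with the next smallest p, among those with at least 2 values in each strain, were not called. SEC13, a component of the COPII vesicle coat and of the nuclear pore, stood at 0.64, 0.58 and 0.69 in YPS1009 and at -0.65, -0.07, -0.02 and 0.15 in YPS163 (limma's adjusted p = 0.012). CCW14, a cell wall glycoprotein, was at 0.54, 1.19 and 0.95 against -0.68, -0.03, -0.02 and 0.14 (limma's adjusted p = 0.013). For both, replicate 1 of YPS163 was the lowest array and the strains did not overlap. UBC12, which conjugates the ubiquitin-like protein Rub1, differed by 1.22 ± 0.28 and GAG1 by 1.04 ± 0.25 (SE; limma's adjusted p = 0.015 and 0.021). The gene with the smallest p among those lower and not called was YLR464W, a frame at the right end, at -3.50 and -3.59 in YPS1009 against -1.41 and -1.68 in YPS163 (limma's adjusted p = 0.062).

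**Figure D5:**
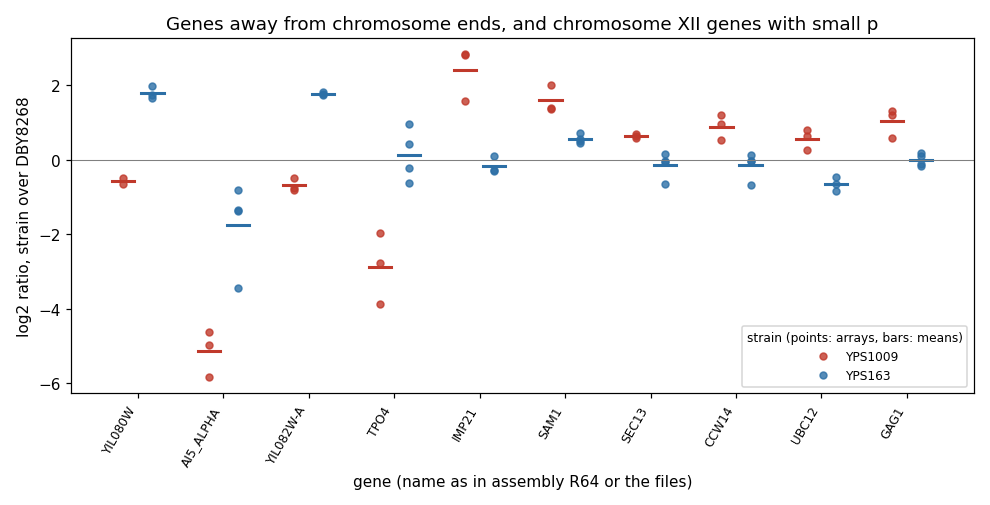
Log2 ratio over DBY8268 of 4 genes called lower away from chromosome ends (YIL080W, AI5_ALPHA, YIL082W-A, TPO4), of the 2 genes called higher (IMP21, SAM1) and of the 4 higher chromosome XII genes with the next smallest p among those with at least 2 values in each strain, with a point for each array and a bar for each strain's mean. The arrays of YPS1009 and YPS163 do not overlap for any of the 10 genes.

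Gene groups of growth and metabolism showed differences in sign without single calls. Of 138 genes of cytoplasmic ribosomal proteins, 131 had a difference above 0, against 2581 of all 5614 genes, and their median was 0.42, from RPS11B at -0.72 to RPS24A at 1.10. None was called by limma, and 20 passed an unadjusted p of 0.05, all higher, against 4.03% of all genes tested. The list's medians were 0.695, 0.49 and -0.06 on the YPS1009 arrays and -0.09, 0.21, -0.05 and -0.28 on the YPS163 arrays, so the strains overlapped, and replicate 3 of YPS1009 was at the level of YPS163. Only 18 of the 138 lie on chromosome XII, and the 120 others had the same median of 0.42.

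Of the 29 genes of glycolysis and fermentation, 26 had a difference above 0, with a median of 0.57. Over all 5614 genes tested, 2581 were above 0 and 3033 below it. The extremes were HXK1, a hexokinase (1.51), and PYK2, a pyruvate kinase isoform (-1.87), both with arrays that overlapped. Array medians were 0.38, 0.50 and 0.07 in YPS1009 and -0.585, 0.45, -0.44 and -0.25 in YPS163, where replicate 2 lay among the YPS1009 arrays. The nuclear genes of the respiratory chain leaned the other way, with 24 of 30 below 0 and a median of -0.49. COX5A, a cytochrome oxidase subunit, had the lowest difference of that list. It stood at 1.62, -1.15 and 2.00 in YPS1009 and at 2.81, 2.06, 2.10 and 2.12 in YPS163, and its difference of -1.45 became -0.46 without replicate 2 of YPS1009. Its hypoxic isoform COX5B had the highest (1.08). Chaperone and heat shock genes had a median of -0.38, with 21 of 32 below 0, not far from the 3033 of 5614 over all genes. Of the 32, 10 passed an unadjusted p of 0.05, all lower. Their list ran from SSA3 at -2.77, with 1 value in each strain, to SSE1 at 1.20. SSE1, a cofactor of Hsp70, was at -0.18, -0.60 and -0.51 in YPS1009 and at -5.27, -0.34, -0.30 and -0.61 in YPS163, and only replicate 1 of YPS163 was low. None of the genes of these 3 lists was called by limma (5 higher genes of glycolysis and fermentation and 6 lower genes of the respiratory chain passed an unadjusted p of 0.05), and the array medians of the strains overlapped in all 3. Over all genes tested, limma passed 4.03% as higher and 4.56% as lower at that unadjusted p.

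A short list of single genes, chosen because copy number or sequence is known to vary between yeast strains, held none that limma called. HAP1, the haem-responsive activator that carries a Ty insertion in S288c, had ratios of -2.06, -2.30 and -1.96 in YPS1009 and -0.32, -2.08, -1.77 and -2.70 in YPS163 (limma's adjusted p = 0.91), and only replicate 1 of YPS163 was high. AQY2, a water channel, was at 5.94 and 6.80 in YPS1009 against 5.43, 4.68 and 4.84 in YPS163, a difference of 1.39 ± 0.91 (SE; limma's adjusted p = 0.75). Both HAP1 and AQY2 lie on chromosome XII, where the median difference was 0.44. ASP3-3 and ASP3-4, copies of the secreted asparaginase gene on chromosome XII, were far below DBY8268 in both strains, with means of -8.38 and -8.21 in YPS1009 and -6.85 and -7.20 in YPS163. The metallothionein gene CUP1-1 differed by -1.46 ± 0.73, the sodium pump gene ENA1 by 0.18 ± 0.68, the water channel gene AQY1 by 0.47 ± 0.55, URA3 by 0.09 ± 0.22 and LEU2 by -0.07 ± 0.62 (SE), all with overlapping arrays except AQY1. ASP3-2, with 1 value in each strain, differed by 0.11, and ASP3-1 could not be tested.

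Against the other 15 strains, YPS1009 stood apart for most called genes, and most of these were end frames that can share signal. Of the 33 called genes, 6 had a value in only 11 to 14 of these strains, and were compared with those. Among the 31 genes called lower, the YPS1009 mean lay below all other measured strains' means for 27, and the YPS163 mean lay inside their range for 27. The 8 YRF1 genes and 13 of the 14 other end frames are among the 27 for which YPS1009 lay lowest. YPS1009 was farther than YPS163 from the mean of the other strains for 28 of the 33 called genes. All 8 YRF1 genes and all 14 other end frames are among those 28, and they cannot be read as separate observations. The 5 for which YPS163 was farther were YIL080W, YIL082W-A, AI5_ALPHA, YKL225W and PAU15. For the YRF1 genes the medians of the other strains ran from -1.73 in RM11a to 0.43 in B1, all above the 3 YPS1009 arrays.

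Leaving out replicate 1 of YPS163 left most calls in place. Off chromosome XII, 27 of 5092 genes were then called, 26 lower and 1 higher, and on it 4 of 484, all lower. The median difference was -0.07 off chromosome XII and 0.44 on it, 84.1% of genes on it were above 0, and the chromosome's offset was 0.51. Of the 33 calls, 28 remained, PAU15, SAM1 and TPO4 were lost, and 2 could not be tested. The 3 that were gained were MET28, a regulator of sulfur metabolism (-2.94 ± 0.57), LCL1 (-2.25 ± 0.46) and YNR001W-A (-4.22 ± 0.67, SE), at limma's adjusted p of 0.0061, 0.0050 and 0.0083. MET28 then had 1 value in YPS163, and YNR001W-A had 1 in each strain.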

How the data were processed

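The authors hybridized RNA of each strain against DBY8268 on spotted 2-colour arrays with inverse dyes, kept unflagged spots above a minimum pixel correlation and applied regional mean-centering. They deposited 1 log2 ratio per gene and array, already turned to strain over DBY8268. The authors tested with limma; the image and normalization software and the genome build were not given in the sources used here. Centring hides a shift of all transcripts together, and filtering leaves low spots without a value. No spot intensities were used, so the number of arrays limits the precision. Symbols and gene order came from an R64 table, which held 5824 of the 6264 IDs.

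Differences were tested with limma 3.58.1 in R 4.3.3, in 1 fit over all 54 arrays with 1 coefficient per strain and a shared variance (3.53 prior degrees of freedom), Benjamini-Hochberg adjusted over 5614 genes with at least 1 value in each strain. The test was tried on simulated data. In all, 36 gene lists were used, and those not named in the report held no further call other than members named there. Genes picked for naming were, by rule, called genes with at least 2 values per strain (the 15 largest in each direction off chromosome XII, and the 10 largest higher and 5 largest lower on it, filled to 5 by smallest p), list extremes and single genes of known copy number variation. Not every gene picked by this rule is described singly, and several end frames are given only as part of their group. Other called genes, and those near the threshold, were named after their values were seen. Members and lists were chosen with earlier results of these data known. Promoter sequences were not used here.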

Additional observations from a re-analysis of the deposited data

Results flagged for a closer look

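Among 41 values checked for an array far from the other 3 of YPS163, 2 stood out by Dixon's ratio at the 95% level, both on replicate 1, and chance alone flags about 5% of such groups. The median log2 ratio of the Ty frames was -1.79 on that array, against -4.31, -4.32 and -4.79 on the other YPS163 arrays and -3.95, -3.90 and -4.54 on the YPS1009 arrays. It rested on 26 Ty frames with a value there, against 78 to 85 on the other 6 arrays. COX5A had a ratio of 2.81 on the same array, against 2.06, 2.10 and 2.12 on the other YPS163 arrays.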

How the results depend on the processing

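The offset of chromosome XII kept its direction under every alternative, between 0.46 (arrays scaled to the same spread) and 0.52, and its call wherever it was tested (the difference between the 1 array of each strain in slide series 6 has no test). The YRF1 genes called lower numbered 6 in the fit on 7 arrays, 7 among genes with a value on all 7 arrays, and 8 under the other alternatives, a set chosen after seeing the data. The 28 calls off chromosome XII became 12 with the 7 arrays alone, 16 among genes with a value on all 7 arrays (2467 tested) and 44 at a false discovery rate of 0.05, and 23 to 33 with 1 array left out. The 5 calls on chromosome XII became 2 with the 7 arrays alone, 9 with array weights, 10 with centring off chromosome XII, 10 with separate adjustment on and off it, 16 at 0.05, and 4 to 6 with 1 array left out. Of the 33 called genes, 25 stayed called whenever 1 array was left out and they could be tested, and all 33 kept their direction.

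With the replicate number as a block, 30 genes off chromosome XII and 10 on it were called. The numbers gave no pairing: deviations of same-numbered arrays correlated at 0.288, 0.12 and -0.275, and none of the 3 YPS1009 arrays correlated best with its own number. Some arrays with different numbers did share deviations. Replicate 1 of YPS1009 correlated at 0.484 with replicate 3 of YPS163 and at -0.572 with replicate 4. The dye-reversed arrays, replicate 3 of YPS1009 and replicate 4 of YPS163, correlated at 0.425.

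Genes that were not called changed sign in places, and the cause was not tested: ASP3-4 (0.21) and ASP3-2 (-0.063) with scaled arrays, HAP1 (0.023) and AQY1 (-0.10) with slide series as a block, ENA1 (-0.14) with array weights, and LEU2 (0.10) with the replicate block. With 1 array left out, HAP1 ranged from -0.72 to 0.077, URA3 from -0.057 to 0.20, ENA1 from -0.048 to 0.46 and LEU2 from -0.85 to 0.33. The median of the ribosome biogenesis list, 0.18, was -0.03 without replicate 1 of YPS1009 and -0.013 without replicate 4 of YPS163.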
